A study of Mus musculus with 16 samples.

Results

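The mitochondrially encoded genes are all 37 rows of the deposited tables whose gene name starts with mt-, out of 54532 genes. They comprise 13 protein-coding genes, 2 ribosomal RNA (rRNA) genes and 22 transfer RNA (tRNA) genes, and each carried the same gene identifier in both tables. The series used KPC1199, a mouse pancreatic cancer line, grown as orthotopic tumours, and asked what Ly6d, a small protein anchored to the cell surface, does in the initiation and progression of pancreatic cancer. Values were matched to 4 groups of KPC1199 cells sorted from such tumours: cells overexpressing Ly6d, wild-type (WT) cells, cells with high Ly6d expression (Ly6d-high) and cells with low Ly6d expression (Ly6d-low), with 2 libraries each. The match of the overexpression columns to sorted cells is inferred. No values were matched to the 8 whole-tumour samples of the series. The labels give neither the vector that carried Ly6d, nor the sorting gates, nor the age or strain of the host mice, and all 4 groups share the one cell line. They also do not say that the libraries of a group came from separate animals, so that p-values measure the spread between these libraries, which may be technical.

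The mitochondrial genome is a small circular DNA that is copied from both strands into long precursor RNAs. The tRNAs sit between the other genes, and cutting them out of the precursor releases the mRNAs and rRNAs. The proteins it encodes are all membrane subunits of the respiratory chain and ATP synthase (complexes I, III, IV and V). The remaining subunits of these complexes, and every subunit of complex II, are encoded in the nucleus. Of the 13 mRNAs here, 7 belong to complex I, 1 to complex III, 3 to complex IV and 2 to complex V, and mt-Nd6 is the only mRNA gene on the minus strand.

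Part of the mitochondrial sequence also exists in the nucleus, which decides how far single members can be read. On chromosome 1, 7 annotated unprocessed pseudogenes on the minus strand (GRCm38 chr1:24611535-24616197) follow the mitochondrial genome from base 6390 to base 11042, and 4136 of the 4137 bases aligned were identical. This stretch wholly contains mt-Co2, mt-Atp8, mt-Atp6, mt-Co3, mt-Nd3, mt-Nd4l and 5 tRNA genes (mt-Ts1, mt-Td, mt-Tk, mt-Tg and mt-Tr), and parts of mt-Co1 and mt-Nd4. For mt-Atp8 and the 5 tRNA genes this is by position only: mt-Atp8 shared no window of 100 bases with an annotated nuclear transcript, and the tRNA genes are shorter than the window. The first 100 bases of the mt-Co1 copy, Gm29216, follow the matching stretch of mt-Co1 because they hold the edge of the copy, with the 6 bases that differ in capitals. After the last of these bases the copy matches mt-Co1 to its end. Ends that did not match were left out of the 4137 aligned bases. Left out were most of these 6 bases and the only difference of the mt-Nd3 copy, given below.
mt-Co1 (MT:6381-6480, plus strand): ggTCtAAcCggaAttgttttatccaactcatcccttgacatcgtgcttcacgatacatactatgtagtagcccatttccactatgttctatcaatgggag
Gm29216 (chr1:24616098-24616197, minus strand): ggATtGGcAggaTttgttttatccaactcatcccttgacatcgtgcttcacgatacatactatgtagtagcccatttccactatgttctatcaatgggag

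Among windows of 100 bases, those found also in an annotated nuclear transcript made up 99.5% of mt-Co2 and mt-Atp6, 99.9% of mt-Co3, 97.6% of mt-Nd3 and 98.5% of mt-Nd4l. The share was 60.8% for mt-Nd4 and 30.8% for mt-Co1, 3.19% for mt-Nd2 and 0% for mt-Atp8, mt-Nd1, mt-Nd5, mt-Nd6, mt-Cytb and both rRNA genes. These shares include pseudogenes on chromosome 2. There Gm13341 shared 88 windows with mt-Co2, Gm13340 shared 80 with mt-Co1 and Gm13339 shared 30 with mt-Nd2. The chromosome 1 copy Gm29216 shared 380 windows with mt-Co1. The mt-Nd3 copy, Gm28438, differs from mt-Nd3 over 345 bases only by T3C, counted from the 5′ end of mt-Nd3. The mt-Nd4l copy, Gm10222, is identical over 294 bases. How reads that fit several places were counted was not stated in the sources used. The values of the members within the copied stretch are therefore uncertain and are reported apart from the rest. Counts and shares over all members include them. A second limit on a single gene is the 43-base overlap of mt-Atp8 and mt-Atp6, shown here because a read within it cannot be assigned to either gene, with the start codon of mt-Atp6 in capitals.
mt-Atp8 and mt-Atp6 (MT:7927-7969, plus strand): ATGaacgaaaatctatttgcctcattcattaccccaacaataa

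The 5 tRNAs shown next had the most reads in the libraries of Ly6d-high and Ly6d-low cells: mt-Tl1, mt-Tl2 and mt-Th of the plus strand, which were lower in Ly6d-high cells by limma, and mt-Tp and mt-Tc of the minus strand, for which no difference passed the test. Capitals mark the anticodon, located as the triplet that follows a T within a stem of at least 4 of 5 pairs.
mt-Tl1, leucine (MT:2676-2750, plus strand): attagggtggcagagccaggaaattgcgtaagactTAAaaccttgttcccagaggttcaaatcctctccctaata
mt-Tl2, leucine (MT:11671-11741, plus strand): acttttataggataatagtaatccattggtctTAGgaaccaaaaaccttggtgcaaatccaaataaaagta
mt-Th, histidine (MT:11546-11612, plus strand): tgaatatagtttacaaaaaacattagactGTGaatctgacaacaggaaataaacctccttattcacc
mt-Tp, proline (MT:15356-15422, minus strand): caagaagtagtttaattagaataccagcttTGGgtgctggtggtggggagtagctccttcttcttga
mt-Tc, cysteine (MT:5192-5257, minus strand): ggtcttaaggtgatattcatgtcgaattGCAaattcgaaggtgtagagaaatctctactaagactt

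Totals of the overexpression and WT libraries lay between 15449241 and 18290325 counts, and reads recovered for the libraries of Ly6d-high and Ly6d-low cells between 15063975 and 20509539. Ly6d had 3380 and 3423 CPM (counts scaled to the library total) in overexpression libraries, against 1260 and 1066 CPM in WT libraries, and 697 and 504 TPM (reads scaled for gene length and then to the library) in Ly6d-high libraries, against 1.56 and 0.352 TPM in Ly6d-low libraries. That the count columns called m3 hold sorted overexpression cells is inferred, since tumours labelled as overexpressing carry the same name. Whether these columns hold sorted cells or whole tumour is not settled by the labels. The overexpression comparison, its cell type markers included, depends on this match. WT replicate 2 stood apart from the other 3 libraries of the count table. It held 9191 CPM of the rRNA gene CT010467.1, against 478 CPM in WT replicate 1 and 931 and 822 CPM in the overexpression libraries, and 86.6 CPM of the small nuclear RNA Rn7sk, against 1.99 CPM in WT replicate 1 and 9.19 and 5.11 CPM in the overexpression libraries. Both genes were chosen after their values were seen. Results of the overexpression comparison that rest on this library are given with and without it, or with the values of both WT libraries.

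In Ly6d-high cells, the mitochondrial genes with the most RNA per length were mt-Rnr2 at 4537 ± 252, mt-Cytb at 4184 ± 239, mt-Co1 at 3552 ± 24.8 and mt-Nd1 at 3103 ± 205 TPM (mean ± SD, n = 2), and no neighbours among these 4 overlapped. In Ly6d-low cells the order at the top was mt-Cytb at 7423 ± 398, mt-Rnr2 at 7103 ± 228, mt-Co1 at 6600 ± 187 and mt-Nd1 at 4773 ± 84.4 TPM (SD, n = 2), where libraries of mt-Cytb and mt-Rnr2 overlapped and the other neighbours did not. The mRNAs mt-Nd4, mt-Nd2, mt-Nd5 and mt-Nd6 followed between 1000 ± 27.0 and 470 ± 28.6 TPM in Ly6d-high cells, and between 1238 ± 28.8 and 553 ± 3.83 TPM in Ly6d-low cells. Members wholly inside the copied stretch were listed lower, except that mt-Atp6 had 1888 ± 766 TPM in Ly6d-low cells.

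**Figure D1:**
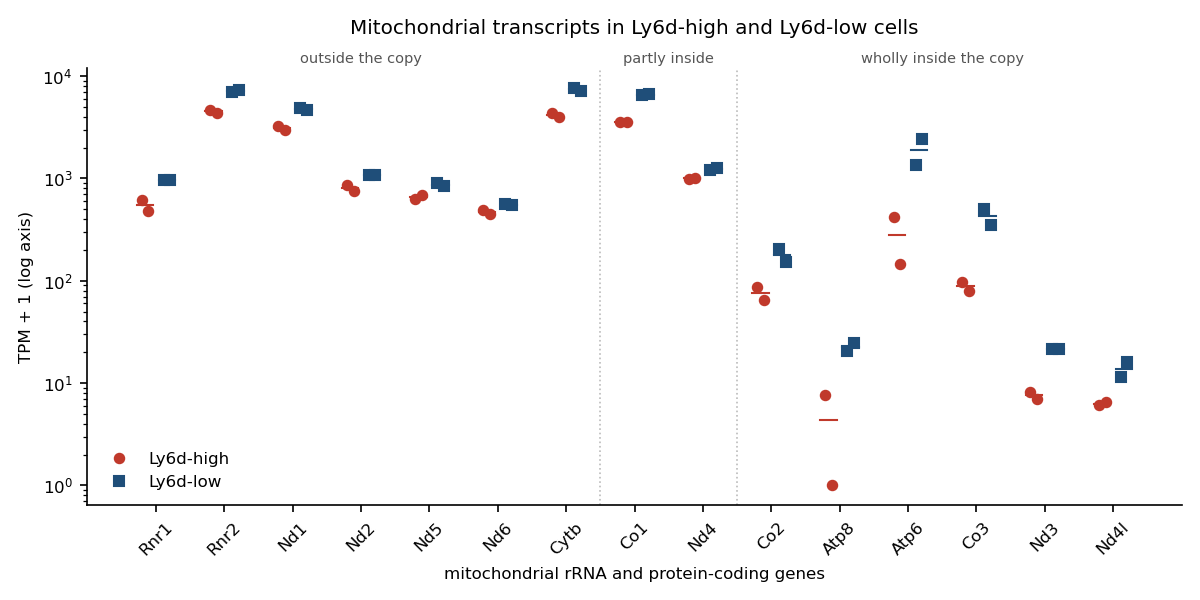
TPM + 1 on a log axis for the 2 rRNA and 13 mRNA genes (names without mt-) in each Ly6d-high (circles) and Ly6d-low (squares) library, with short lines for group means, grouped by position relative to the chromosome 1 copy. For every gene shown, both Ly6d-high libraries lie below both Ly6d-low libraries.

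In the count table the order per length was led by mt-Co1, at 7139 ± 336 CPM per kilobase in overexpression cells and 6270 ± 159 CPM per kilobase in WT cells (SD, n = 2 each). Next came mt-Cytb, at 3028 ± 116 CPM per kilobase in overexpression cells and 2728 ± 15.8 CPM per kilobase in WT cells. Below it stood mt-Nd1, at 2220 ± 228 CPM per kilobase in overexpression cells and 2092 ± 76.0 CPM per kilobase in WT cells, and mt-Nd2, at 1475 ± 89.5 CPM per kilobase in overexpression cells and 1339 ± 80.7 CPM per kilobase in WT cells. These 4 genes kept this order without overlap of neighbours in both groups. Within a library, mt-Co1 per length was 2.34 and 2.37 times mt-Cytb in overexpression libraries and 2.25 and 2.35 times in WT libraries. That ratio was 0.820 and 0.880 in Ly6d-high libraries and 0.840 and 0.943 in Ly6d-low libraries. The rRNAs stood the other way round between the tables. Per length, mt-Rnr2 was 0.417 and 0.429 times mt-Rnr1 in overexpression libraries and 0.489 and 0.640 times in WT libraries, but 7.63 and 9.02 times in Ly6d-high libraries and 7.24 and 7.54 times in Ly6d-low libraries. The tables were deposited in different units and no test was made between them; whether their libraries were prepared alike is not in the sources used here.

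Ly6d-high cells were compared with Ly6d-low cells to see how cells of 1 line that differ in Ly6d differ in the rest of their RNA. Mitochondrially encoded RNA was lower in Ly6d-high cells. It made up 2.02 and 1.87% of all TPM in Ly6d-high libraries, against 3.30 and 3.38% in Ly6d-low libraries, a ratio of 0.583. Both Ly6d-high libraries lay below both Ly6d-low libraries, and an exact two-sided permutation test gave p = 0.333, the smallest p that 2 against 2 libraries allow. By recovered reads the share was 1.01 and 0.874% in Ly6d-high libraries, against 1.67 and 1.67% in Ly6d-low libraries, with Wilson 95% intervals at most 0.0129 percentage points wide. All intervals cover counting error only. The 24 members outside the copied stretch alone made up 1.51 and 1.39% of all TPM in Ly6d-high libraries. In Ly6d-low libraries they made up 2.32 and 2.28%, a ratio of 0.629. In bulk RNA, fewer cells rich in mitochondrial RNA and less mitochondrial RNA per cell cannot be told apart.

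Of the 37 members, 32 passed the filter of at least 1 TPM in at least 2 libraries: all 13 mRNAs, both rRNAs and 17 of the 22 tRNAs. By limma with Benjamini-Hochberg adjustment over all 14625 genes tested, 15 of the 32 were lower in Ly6d-high cells and 0 were higher at an adjusted p under 0.05. Of all genes tested, 1.17% were lower and 8.64% higher. On simulated TPM of 2 against 2 libraries, limma made more false calls than its threshold allows, so its adjusted p-values for Ly6d-high cells are treated as liberal. The simulation changed 200 genes and gave every gene the same added spread, so the size of the excess need not carry over. The 15 were 8 mRNAs, both rRNAs and 5 tRNAs. Among them were 5 of the 6 mRNAs wholly inside the copied stretch, 1 of the 2 partly inside and 2 of the 5 outside. The tRNA mt-Tg, also called, lies inside it too. The median difference of the 32 members was -1.15 on the log2(TPM + 1) scale, beside 0.25 over all genes tested. The groups did not overlap, with Ly6d-high below, for 21 of the 32 members, beside 10.4% of all genes tested. Applying TMM factors to TPM moved the median of all genes to -0.0042 and that of the members to -1.37; 11 members were then lower, and mt-Atp6, mt-Co2, mt-Nd1, mt-Rnr1 and mt-Tl1 lay at adjusted p between 0.0510 and 0.0632. Without the filter on low values 4 members were lower (mt-Co3, mt-Nd3, mt-Tl2 and mt-Ts2), while edgeR and DESeq2 on the recovered reads each called 14 lower, of 18 and 34 members tested, in both cases including mt-Nd2, mt-Nd4, mt-Nd5 and mt-Nd6. Of the 15 members that limma called, edgeR on the recovered reads called 10 and DESeq2 9. Called by all 3 tools were mt-Atp6, mt-Co1, mt-Co2, mt-Co3, mt-Cytb, mt-Nd1, mt-Nd3, mt-Rnr1 and mt-Rnr2.

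Complex I, NADH dehydrogenase, takes electrons from NADH and pumps protons, and the mitochondrial genome encodes the core of its membrane arm. Of its 7 mitochondrial mRNAs, 3 fell in Ly6d-high cells, and the other 4 lay below 0 without passing the threshold. The mRNA mt-Nd1, from a gene with no window of 100 bases shared with a nuclear transcript, had 3248 and 2958 TPM in Ly6d-high libraries, against 4832 and 4713 TPM in Ly6d-low libraries. Its groups were well separated, and mt-Nd1 fell by 0.62 ± 0.08 (SE) on the log2(TPM + 1) scale (limma, adjusted p = 0.00449).

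The other mRNAs of complex I outside the copied stretch had smaller differences. The mt-Nd2 mRNA had 865 and 749 TPM in Ly6d-high libraries, against 1073 and 1073 TPM in Ly6d-low libraries, a difference of -0.41 ± 0.11 (adjusted p = 0.0548). Values of mt-Nd5 were 629 and 691 TPM in Ly6d-high libraries, against 892 and 838 TPM in Ly6d-low libraries, a difference of -0.39 ± 0.10 (adjusted p = 0.0579). For mt-Nd6, which lies alone on the minus strand and overlaps the end of mt-Nd5 by 14 bases on the other strand, they were 490 and 450 TPM in Ly6d-high libraries, against 556 and 551 TPM in Ly6d-low libraries, a difference of -0.24 ± 0.10 (adjusted p = 0.173). In all 3 genes both Ly6d-high libraries lay below both Ly6d-low libraries, but none passed the threshold. Whether counting used the strand of a read could not be taken from the labels or the notes, so reads of mt-Nd6 and mt-Nd5 over their overlap cannot be told apart. The mRNA mt-Nd4, partly inside the copied stretch, had 981 and 1019 TPM in Ly6d-high libraries, against 1218 and 1259 TPM in Ly6d-low libraries, a difference of -0.31 ± 0.09 (adjusted p = 0.0764).

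Complex III passes electrons to cytochrome c, and mt-Cytb encodes cytochrome b, its only mitochondrial subunit. This mRNA had 4353 and 4015 TPM in Ly6d-high libraries, against 7704 and 7141 TPM in Ly6d-low libraries. It fell by 0.83 ± 0.08 on the log2(TPM + 1) scale (limma, adjusted p = 0.00122), and its mean was 1.77-fold higher in Ly6d-low cells. Complex IV, cytochrome c oxidase, passes electrons to oxygen, and mt-Co1 encodes its catalytic core. Values of mt-Co1 were 3569 and 3534 TPM in Ly6d-high libraries, against 6468 and 6732 TPM in Ly6d-low libraries. Libraries within a group lay close together and the groups far apart; mt-Co1 fell by 0.89 ± 0.07 (limma, adjusted p = 5.11e-04). It was 1.86-fold higher in Ly6d-low cells, and 30.8% of its windows are shared with annotated nuclear transcripts on chromosomes 1 and 2.

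**Figure D2:**
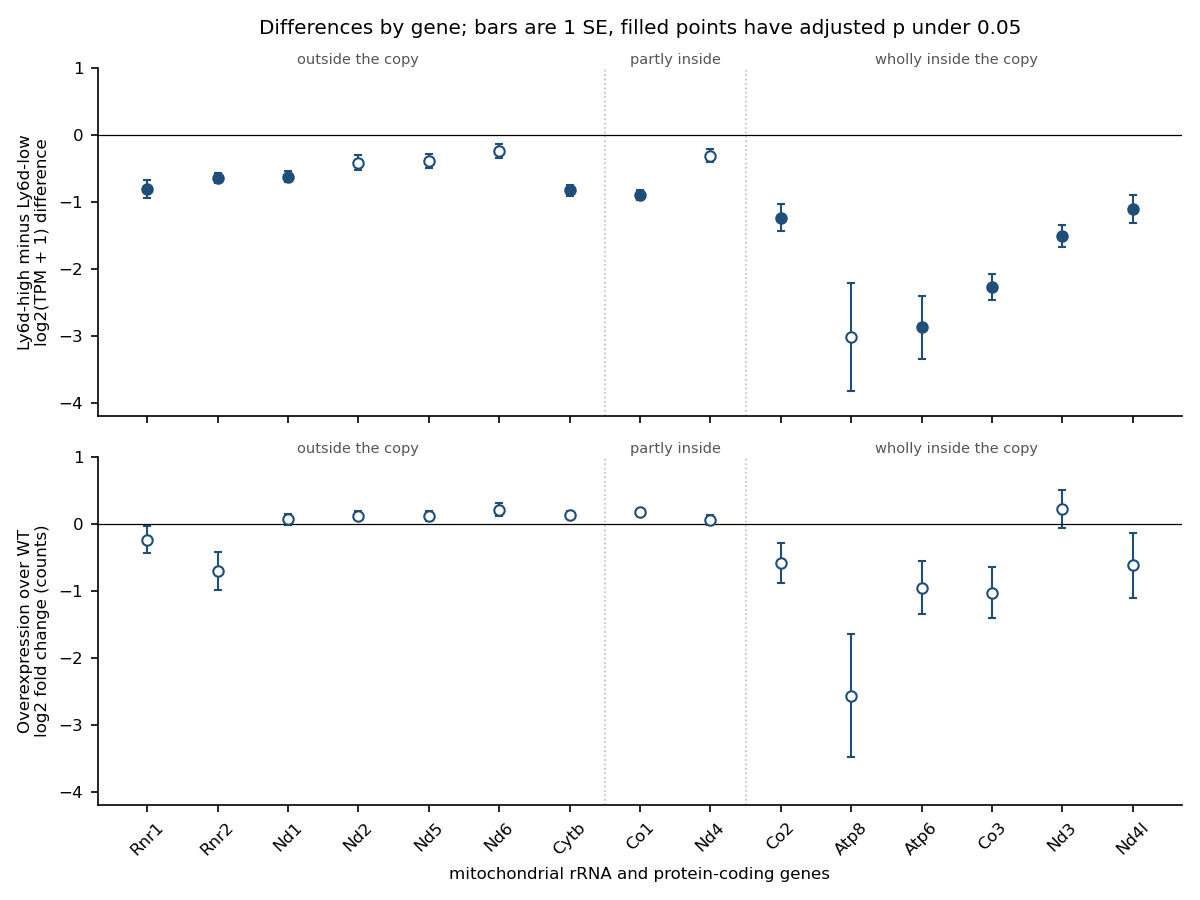
Fitted difference on the log2 scale, with bars of 1 SE, for the rRNA and mRNA genes (names without mt-), Ly6d-high minus Ly6d-low cells in the upper panel and overexpression over WT cells in the lower panel, with filled points where the adjusted p was under 0.05. All points of the upper panel lie below 0, while in the lower panel the 5 mRNAs outside the copied stretch lie slightly above 0 and no point is filled.

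Of the 6 mRNAs wholly inside the copied stretch, 5 fell in Ly6d-high cells, with a median difference of -1.89 over the 6, beside -0.41 over the 5 mRNAs outside it. The mt-Co2 mRNA, which encodes the subunit that takes electrons from cytochrome c, had 85.3 and 64.0 TPM in Ly6d-high libraries, against 203 and 151 TPM in Ly6d-low libraries, and fell by 1.24 ± 0.20 (limma, adjusted p = 0.0102). For mt-Co3, another core subunit of complex IV, values were 96.4 and 77.7 TPM in Ly6d-high libraries, against 503 and 351 TPM in Ly6d-low libraries, and it fell by 2.27 ± 0.20 (limma, adjusted p = 6.30e-04). Within complex IV the mean was thus 1.86-fold higher in Ly6d-low cells for mt-Co1, 2.38-fold for mt-Co2 and 4.90-fold for mt-Co3.

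Complex V, ATP synthase, has both of its mitochondrial subunits inside the copied stretch. The mRNA mt-Atp6, which encodes the subunit that forms the proton channel, had 417 and 145 TPM in Ly6d-high libraries, against 1346 and 2429 TPM in Ly6d-low libraries. The groups did not overlap although libraries within each group differed widely, and mt-Atp6 fell by 2.87 ± 0.47 (limma, adjusted p = 0.0114). Few reads were counted on mt-Atp8, which encodes a small subunit of the stalk: 11 and 0 reads in Ly6d-high libraries, against 24 and 37 reads in Ly6d-low libraries (difference -3.02 ± 0.81, adjusted p = 0.0616). The complex I mRNA mt-Nd3 had 20 and 14 reads in Ly6d-high libraries, against 43 and 55 reads in Ly6d-low libraries, and fell by 1.51 ± 0.17 (limma, adjusted p = 0.00195). Reads of mt-Nd4l numbered 12 and 11 in Ly6d-high libraries, against 19 and 34 in Ly6d-low libraries, and it fell by 1.11 ± 0.21 (limma, adjusted p = 0.0189); without Ly6d-low replicate 2 its adjusted p was 0.204, and neither edgeR nor DESeq2 on the recovered reads called it.

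The annotated copies on chromosome 1 stood the same way as the genes they match. Together they held 0.0326 and 0.0264% of all TPM in Ly6d-high libraries, against 0.0922 and 0.112% in Ly6d-low libraries. Of the 7 copies, 4 were lower in Ly6d-high cells by limma: Gm29216, the copy of mt-Co1, had 35.2 and 39.1 TPM in Ly6d-high libraries, against 101 and 141 TPM in Ly6d-low libraries (difference -1.66 ± 0.18, adjusted p = 0.00193). The copy of mt-Atp6, Gm10925, had 188 and 122 TPM in Ly6d-high libraries, against 530 and 644 TPM in Ly6d-low libraries (difference -1.94 ± 0.21, adjusted p = 0.00177). Gm28661 and Gm28437, the copies of mt-Co2 and mt-Co3, had differences of -1.14 and -2.17 and passed the threshold too. Gm28439 and Gm10222 did not pass the threshold, at differences of -0.73 and -1.19, and Gm28438 was too low to be tested. Since the sequences are nearly identical, reads of a copy and of its mitochondrial gene cannot be told apart. When each copy was summed with its gene, an alternative chosen after seeing the data, 15 of the 32 members were again lower in Ly6d-high cells. The sum could alter only members with a copy, and most copies already lay lower, so this count could hardly change. Reads counted at neither place are not in the sum.

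The rRNAs lie at the start of the plus-strand transcript, outside the copied stretch, and form the RNA core of the mitochondrial ribosome. The 12S rRNA mt-Rnr1 had 618 and 483 TPM in Ly6d-high libraries, against 959 and 963 TPM in Ly6d-low libraries, and fell by 0.81 ± 0.13 (limma, adjusted p = 0.0111). The 16S rRNA mt-Rnr2 had 4715 and 4359 TPM in Ly6d-high libraries, against 6942 and 7265 TPM in Ly6d-low libraries, and fell by 0.65 ± 0.08 (limma, adjusted p = 0.00290). Neither rRNA overlapped between groups. They made up 0.533 and 0.484% of all TPM in Ly6d-high libraries, against 0.790 and 0.823% in Ly6d-low libraries, and the mRNAs 1.48 and 1.37% in Ly6d-high libraries, against 2.48 and 2.53% in Ly6d-low libraries. The ratio of Ly6d-high to Ly6d-low shares was 0.631 for rRNAs and 0.568 for mRNAs. Whether RNA was selected by its poly(A) tail or by removal of rRNA is not given by the labels.

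The tRNAs were sparsely covered. All 22 together held 79 and 68 reads in Ly6d-high libraries, against 97 and 146 reads in Ly6d-low libraries, and mt-Tf, mt-Ts1 and mt-Tk had none in any of these libraries. Their reads were summed by the strand of the gene. The 14 plus-strand tRNA genes held 18 and 19 reads in Ly6d-high libraries, against 67 and 79 reads in Ly6d-low libraries, whereas the 8 minus-strand genes held 61 and 49 reads in Ly6d-high libraries, against 30 and 67 reads in Ly6d-low libraries. The plus-strand sums did not overlap between groups, and the minus-strand sums did. Of the 10 plus-strand tRNAs tested, 5 fell, and of the 7 minus-strand tRNAs tested 0 passed the threshold in limma and 0 reached an unadjusted p under 0.05; the difference between the strands was not tested.

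**Figure D3:**
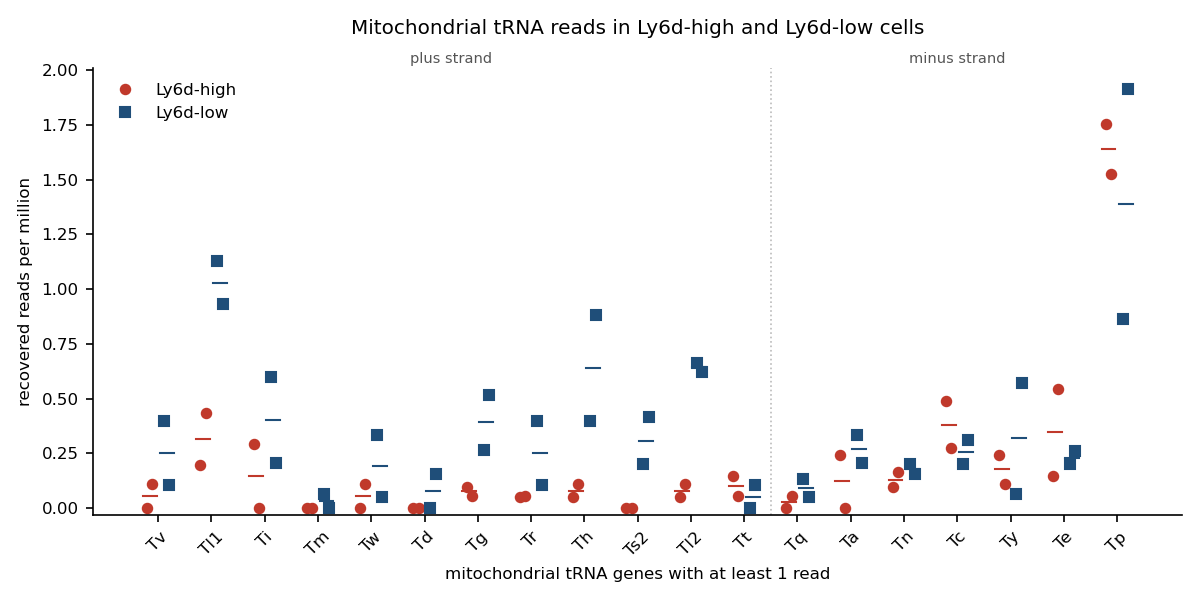
Recovered reads scaled to library depth (RPM) for each tRNA gene with at least 1 read (names without mt-), plus-strand and minus-strand genes apart, with circles for Ly6d-high libraries, squares for Ly6d-low libraries and short lines for group means. On the plus strand Tl1, Th and Tl2 are higher in both Ly6d-low libraries, while Tp and Tc of the minus strand overlap between the groups.

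The 5 tRNAs that fell by limma included both leucine tRNAs printed above, but these calls depended on the tool. On the recovered reads edgeR called mt-Tl2 alone among the tRNAs, not mt-Tl1, with mt-Th, mt-Tg and mt-Ts2 below its filter on low counts, and DESeq2 called none. In limma without a filter mt-Tl1, mt-Th and mt-Tg were lost, and with TMM factors mt-Tl1 was lost. With the reads of each group summed, mt-Tl1 had 12 reads in Ly6d-high cells, against 35 reads in Ly6d-low cells, a depth-scaled ratio of 0.303 (exact 95% interval 0.143 to 0.598), and limma gave a difference of -1.63 ± 0.35 (adjusted p = 0.0313). For mt-Tl2 there were 3 reads in Ly6d-high cells, against 22 reads in Ly6d-low cells, a ratio of 0.121 (0.0231 to 0.402; limma difference -2.64 ± 0.30, adjusted p = 0.00207). The histidine tRNA mt-Th had 3 reads in Ly6d-high cells, against 23 reads in Ly6d-low cells, a ratio of 0.115 (0.0222 to 0.382; limma difference -2.55 ± 0.42, adjusted p = 0.0115). In all 3 of these tRNAs each Ly6d-high library had fewer reads than each Ly6d-low library. The glycine tRNA mt-Tg, inside the copied stretch, had 3 reads in Ly6d-high cells, against 14 reads in Ly6d-low cells, a ratio of 0.190 (0.0349 to 0.679; limma adjusted p = 0.0132). The serine tRNA mt-Ts2 had 0 reads in Ly6d-high cells, against 11 reads in Ly6d-low cells, which made it at least 4.15-fold lower against a floor of 3 reads over the group.

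On the minus strand, mt-Tp, the tRNA with the most reads, had 64 reads in Ly6d-high cells, against 50 reads in Ly6d-low cells, a depth-scaled ratio of 1.13 with an exact 95% interval of 0.770 to 1.67. The cysteine tRNA mt-Tc had 15 reads in Ly6d-high cells, against 9 reads in Ly6d-low cells, a ratio of 1.47 (0.604 to 3.82). The ratio was 1.44 for the glutamate tRNA mt-Te, but lay below 1 for the other 4 minus-strand tRNAs tested, at 0.737 for mt-Tn, 0.516 for mt-Ty, 0.491 for mt-Ta and 0.295 for mt-Tq. All 7 intervals include 1. The minus-strand tRNAs tested thus lay on both sides, 4 below 0 and 3 above on the log2(TPM + 1) scale, with a median of -0.23, beside 9 below and 1 above on the plus strand, with a median of -1.91. The 1 above was the threonine tRNA mt-Tt, with 4 reads in Ly6d-high cells, against 2 reads in Ly6d-low cells (ratio 1.77, interval 0.254 to 19.6). The other 4 plus-strand tRNAs tested, mt-Tv, mt-Ti, mt-Tw and mt-Tr, had ratios between 0.221 and 0.408, with intervals that include 1. Reads of mt-Tm and mt-Td were seen in Ly6d-low libraries alone, 1 and 3 in all. Several plus-strand tRNAs overlap other genes by a few bases, such as mt-Ti with mt-Nd1 (2 bases) and mt-Tw with mt-Nd2 (2 bases), and reads there cannot be assigned to one of the pair.

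The makeup of the mitochondrial mRNA pool also differed in its values. Among the 5 mRNAs outside the copied stretch, mt-Cytb made up 45.4 and 45.3% of their summed TPM in Ly6d-high libraries, against 51.2 and 49.9% in Ly6d-low libraries. The share of mt-Nd6 was 5.12 and 5.08% in Ly6d-high libraries, against 3.69 and 3.85% in Ly6d-low libraries. For mt-Nd1 the shares were 33.9 and 33.4% in Ly6d-high libraries, against 32.1 and 32.9% in Ly6d-low libraries. For mt-Nd2 they were 9.03 and 8.45% in Ly6d-high libraries, against 7.12 and 7.50% in Ly6d-low libraries. Thus mt-Cytb took a smaller share in both Ly6d-high libraries, and the complex I mRNAs each took a larger one. Per length, mt-Cytb was 8.88 and 8.92 times mt-Nd6 in Ly6d-high libraries and 13.9 and 13 times in Ly6d-low libraries. No test was made on these shares, for which 2 against 2 libraries cannot give an exact p below 0.333.

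Respiratory complexes are built from mitochondrial and nuclear subunits, and the 77 nuclear subunit genes were set beside the mitochondrial ones. Of the nuclear genes, 2 rose and 1 fell in Ly6d-high cells by limma, and 60 of the 77 differences were below 0 (23.3% of all genes tested were), with a median of -0.16, beside 0.25 over all genes. Sdha, the catalytic subunit of complex II, had 140 and 162 TPM in Ly6d-high libraries, against 99.6 and 106 TPM in Ly6d-low libraries (difference 0.55 ± 0.13, adjusted p = 0.0460). Uqcrc1, a core subunit of complex III, had 270 and 326 TPM in Ly6d-high libraries, against 166 and 208 TPM in Ly6d-low libraries (difference 0.67 ± 0.16, adjusted p = 0.0416). Atp5c1, which encodes the rotating central stalk of ATP synthase, had 568 and 497 TPM in Ly6d-high libraries, against 779 and 765 TPM in Ly6d-low libraries (difference -0.54 ± 0.11, adjusted p = 0.0251). These 3 calls ended when TMM factors were applied, without a filter and without either Ly6d-low library, and those of Sdha and Uqcrc1 also in edgeR and DESeq2 on the recovered reads. Medians by complex were -0.14 for complex I (36 genes), -0.07 for complex II (4), -0.06 for complex III (9), -0.21 for complex IV (11) and -0.25 for complex V (17).

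The ratio of mitochondrial to nuclear subunit RNA was lower in both Ly6d-high libraries for each complex with members outside or mostly outside the copied stretch. For complex III, mt-Cytb was 20.9 and 22.3 times the mean TPM of the 9 nuclear subunits in Ly6d-high libraries and 38.5 and 36.2 times in Ly6d-low libraries. For complex IV, mt-Co1 was 13.5 and 20.8 times the mean of the 11 nuclear subunits in Ly6d-high libraries and 25.8 and 29.2 times in Ly6d-low libraries. For complex I, the mean of mt-Nd1, mt-Nd2, mt-Nd5 and mt-Nd6 was 8.90 and 10.7 times that of the 36 nuclear subunits in Ly6d-high libraries and 12.7 and 13 times in Ly6d-low libraries.

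**Figure D4:**
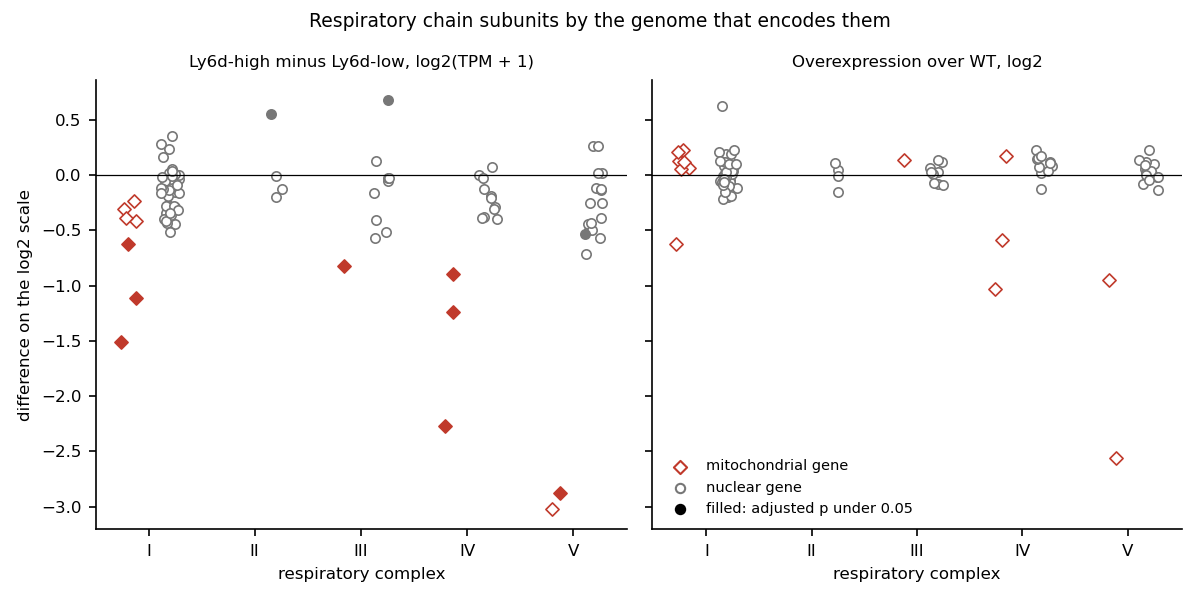
Fitted log2 differences of the subunits of each respiratory complex, mitochondrially encoded (diamonds) beside nuclear-encoded genes (circles), for Ly6d-high minus Ly6d-low cells and for overexpression over WT cells, with filled points where the adjusted p was under 0.05. For Ly6d-high cells the mitochondrial mRNAs of complexes III, IV and V lie below all nuclear subunits of the same complex.

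Nuclear genes that act on mitochondrial RNA were counted in lists by role. In Ly6d-high cells 0 of 11 genes of mitochondrial transcription, 0 of 18 of mitochondrial DNA maintenance and 0 of 14 translation factors passed the threshold by limma, in a comparison where 9.81% of all genes did and 30.8% had an unadjusted p under 0.05. Among 43 RNA processing genes, 1 rose: Fastk, whose mitochondrial form is needed for the mt-Nd6 mRNA, had 41.7 and 49.4 TPM in Ly6d-high libraries, against 28.2 and 30.1 TPM in Ly6d-low libraries (difference 0.62 ± 0.15, adjusted p = 0.0492, a call that ended with TMM factors and in edgeR and DESeq2 on the recovered reads). Among 78 mitochondrial ribosomal protein genes 1 rose, Mrpl4, at 0.62 ± 0.14 (adjusted p = 0.0386, also lost in all 3). Of 20 mitochondrial tRNA synthetases 1 fell, Lars2, which charges both mitochondrial leucine tRNAs. Lars2 had 29.2 and 29.5 TPM in Ly6d-high libraries, against 82.3 and 89.3 TPM in Ly6d-low libraries, and fell by 1.51 ± 0.14 (adjusted p = 7.38e-04). An RNA that stood high together with Lars2 in WT replicate 2, Gm23935, chosen after its values were seen, had 4936 and 4089 TPM in Ly6d-high libraries, against 10119 and 11216 TPM in Ly6d-low libraries (difference -1.25 ± 0.11, adjusted p = 6.24e-04). Other RNAs that stood high in WT replicate 2, also chosen after their values were seen, did not fall. CT010467.1 had 539 and 520 TPM in Ly6d-high libraries, against 525 and 520 TPM in Ly6d-low libraries. The non-coding RNA Gm26917 had 589 and 828 TPM in Ly6d-high libraries, against 479 and 534 TPM in Ly6d-low libraries. Values of Rn7sk overlapped between these groups. The part of Gm23935 in the values of Lars2 was not tested.

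Lists of other mitochondrial roles were counted beside the 8.64% of all genes that were higher and the 1.17% that were lower. Of 21 genes of import, porins and carriers, 14 of the tricarboxylic acid cycle, 8 biogenesis regulators, 42 assembly factors and 18 stress response genes, 0 passed the threshold by limma in Ly6d-high cells. Of 14 mitophagy genes 1 rose, Pink1, the kinase that marks damaged mitochondria, with 62.7 and 90.8 TPM in Ly6d-high libraries, against 36.5 and 35.1 TPM in Ly6d-low libraries (difference 1.06 ± 0.19, adjusted p = 0.0174, lost with TMM factors). Of 6 sensors of mitochondrial nucleic acids 1 rose, Tmem173, which encodes STING, with 150 and 174 TPM in Ly6d-high libraries, against 70.9 and 67.3 TPM in Ly6d-low libraries (difference 1.21 ± 0.13, adjusted p = 0.00195). Of 18 glycolysis genes 2 fell, Ldha (-0.57 ± 0.08, adjusted p = 0.00466, lost without either Ly6d-low library) and Tpi1 (-0.43 ± 0.08, adjusted p = 0.0193, lost with TMM factors and without either Ly6d-low library). Of 80 cytosolic ribosomal protein genes 4 fell, but 77 of the 80 differences were below 0, beside 23.3% of all genes tested. Their median was -0.34, beside 0.25 over all genes, so this class too lay lower in Ly6d-high cells.

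Markers of other cell types moved with this comparison, in which 8.64% of all genes tested were higher and 1.17% lower. The summed TPM of acinar markers was 15054 and 13419 in Ly6d-high libraries, against 6512 and 6544 in Ly6d-low libraries, and 11 of 14 tested were higher in Ly6d-high cells. Macrophage markers summed to 846 and 895 TPM in Ly6d-high libraries, against 275 and 278 TPM in Ly6d-low libraries (5 of 8 tested higher). B and plasma cell markers summed to 1857 and 1637 TPM in Ly6d-high libraries, against 4.54 and 2.84 TPM in Ly6d-low libraries (4 of 5 higher; Mzb1 at 0 in Ly6d-low and Ms4a1 at 0 in Ly6d-high libraries). Islet markers summed to 455 and 418 TPM in Ly6d-high libraries, against 803 and 761 TPM in Ly6d-low libraries (4 of 9 lower), and epithelial tumour markers to 40915 and 40419 TPM in Ly6d-high libraries, against 56572 and 57767 TPM in Ly6d-low libraries (2 higher and 4 lower of 10, with none at 0 in either group). Neutrophil markers summed to 161 and 197 TPM in Ly6d-high libraries, against 61.3 and 63.4 TPM in Ly6d-low libraries (1 of 2 tested higher, with Camp at 0 in all 4 libraries), and T cell markers to 17.9 and 13.3 TPM in Ly6d-high libraries, against 9.76 and 7.66 TPM in Ly6d-low libraries (2 of 4 higher). Of endothelial, fibroblast and erythroid markers 0 passed the threshold. Of 14 immediate-early and dissociation genes 4 were higher in Ly6d-high cells. Of 33 replication-dependent histone genes 2 were higher (Hist1h1e and Hist1h3e), which is not above the share over all genes. Of 2 nuclear-retained RNAs 0 passed. The part of these cells and genes in the mitochondrial values was not tested.

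Overexpression cells were compared with WT cells to see what added Ly6d changes in this line. As a share of counts, mitochondrial RNA did not differ beyond the spread of the libraries. It made up 2.17 and 2.36% of counts in overexpression libraries, against 2.0 and 2.22% in WT libraries, a ratio of 1.07, or 1.13 without WT replicate 2 (exact two-sided permutation p = 0.667 with all libraries). The ranges of the groups overlapped. Per length they did not. As a share of TPM computed from the counts, mitochondrial RNA made up 5.25 and 5.63% in overexpression libraries. It made up 4.61% in WT replicate 1 and 3.75% in WT replicate 2. The ratio was 1.30 with both WT libraries (exact permutation p = 0.333, the smallest possible). It rests in part on WT replicate 2 and was not computed without that library. In that library the 36 nuclear complex I subunits also averaged only 80.1 computed TPM. Their mean was 126 TPM in WT replicate 1 and 124 and 130 TPM in overexpression libraries. The mRNAs alone made up 2.03 and 2.18% of counts in overexpression libraries, against 1.86 and 1.93% in WT libraries, and these did not overlap (exact permutation p = 0.333, the smallest possible). The rRNAs made up 0.142 and 0.176% in overexpression libraries, against 0.142 and 0.286% in WT libraries, the last value being that of WT replicate 2.

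Of the 37 members, 25 passed edgeR's filter on low counts: the 13 mRNAs, both rRNAs and 10 tRNAs. By edgeR's quasi-likelihood test with Benjamini-Hochberg adjustment over 15771 genes, 0 of the 25 were higher and 0 lower in overexpression cells, where 4.16% of all genes passed (2.32% higher and 1.84% lower). At an unadjusted p under 0.05 there were 8 of 25, beside 17.3% of all genes, and DESeq2 called 1 member, mt-Co1, higher. The median of the 25 was 0.09, beside -0.0012 over all genes. The groups did not overlap for 10 members, 8 with overexpression above and 2 below, beside 26.3% and 21.7% of all genes. Without WT replicate 2, 5 members were higher (mt-Co1, mt-Cytb, mt-Nd5, mt-Nd6 and mt-Rnr1) and 0 lower; without WT replicate 1, 3 were higher (mt-Co1, mt-Cytb and mt-Nd2) and 5 lower (mt-Atp6, mt-Co2, mt-Co3, mt-Rnr1 and mt-Rnr2). The number of members called therefore rested on which WT library was kept, and mt-Rnr1 was called in opposite directions.

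The mRNAs outside or partly inside the copied stretch had small differences, all above 0, as were those of 49.8% of all genes tested. The mt-Co1 mRNA had 10662 and 11397 CPM in overexpression libraries, against 9514 and 9861 CPM in WT libraries, a log2 fold change of 0.17 ± 0.06 (SE; edgeR, adjusted p = 0.135); most but not all of it lies outside the stretch. For mt-Cytb the values were 3370 and 3557 CPM in overexpression libraries, against 3134 and 3108 CPM in WT libraries (0.13 ± 0.06, adjusted p = 0.286). In both genes the overexpression libraries lay above the WT libraries. The mt-Nd6 mRNA had 209 and 232 CPM in overexpression libraries, against 173 and 203 CPM in WT libraries (0.21 ± 0.09, adjusted p = 0.256), again without overlap. For mt-Nd1, mt-Nd2, mt-Nd4 and mt-Nd5 the log2 fold changes were 0.07, 0.12, 0.06 and 0.12, with adjusted p between 0.421 and 0.772; mt-Nd4 is partly inside the stretch, with 60.8% of its windows shared. Ratios to nuclear subunits overlapped: mt-Co1 was 52.2 and 53.1 times the mean of the 11 nuclear complex IV subunits per length in overexpression libraries and 45.6 and 56.8 times in WT libraries.

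WT replicate 2 lay above the other 3 libraries for both rRNAs and for 5 of the 6 mRNAs inside the copied stretch, all but mt-Nd3, which had 11 and 7.72 CPM in overexpression libraries, against 6.18 and 9.64 CPM in WT libraries. The mt-Atp6 mRNA had 26.9 and 32.1 CPM in overexpression libraries, against 25.8 CPM in WT replicate 1 and 86.9 CPM in WT replicate 2 (log2 fold change -0.95, adjusted p = 0.235). For mt-Co3 the values were 18.3 and 21.1 CPM in overexpression libraries, against 19.2 CPM in WT replicate 1 and 60.2 CPM in WT replicate 2 (-1.03, adjusted p = 0.184). The mt-Co2 mRNA had 51.6 and 57.6 CPM in overexpression libraries, against 45.9 CPM in WT replicate 1 and 116 CPM in WT replicate 2 (-0.58, adjusted p = 0.357). In each of these WT replicate 1 lay beside the overexpression libraries and WT replicate 2 far above them. The 16S rRNA mt-Rnr2 had 582 and 732 CPM in overexpression libraries, against 637 CPM in WT replicate 1 and 1472 CPM in WT replicate 2 (-0.70, adjusted p = 0.214). Without WT replicate 2 the log2 fold changes were 0.18 for mt-Atp6, 0.03 for mt-Co3, 0.24 for mt-Co2 and 0.04 for mt-Rnr2. Reads of mt-Atp8 numbered 6 and 3 in overexpression libraries, against 15 and 33 in WT libraries, the only mRNA whose WT libraries both lay above (-2.56, adjusted p = 0.165).

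**Figure D5:**
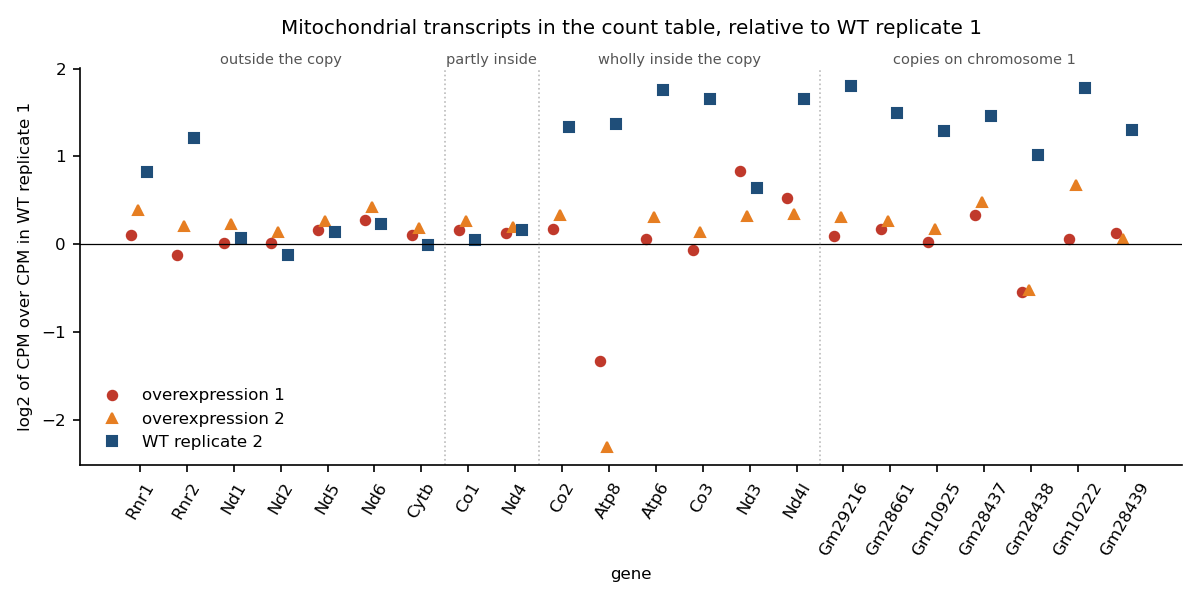
CPM over the CPM of WT replicate 1, on a log2 scale, for the rRNAs and mRNAs (names without mt-) and the chromosome 1 copies in overexpression libraries (circles and triangles) and WT replicate 2 (squares). The mRNAs outside the copied stretch lie close to 0 in every library, while in WT replicate 2 both rRNAs, the copies and the mRNAs inside the stretch lie above 0, and all but mt-Nd3 among these also above both overexpression libraries.

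The copies on chromosome 1 followed the same library. They held 0.0132 and 0.0144% of counts in overexpression libraries, against 0.0121% in WT replicate 1 and 0.0328% in WT replicate 2, and 0 of the 7 passed edgeR's threshold. Gm28661 had 41.4 and 44.1 CPM in overexpression libraries, against 36.8 CPM in WT replicate 1 and 104 CPM in WT replicate 2. Lars2, the leucyl-tRNA synthetase gene that fell in Ly6d-high cells, had 226 and 202 CPM in overexpression libraries, against 172 CPM in WT replicate 1 and 2119 CPM in WT replicate 2. Among RNAs chosen after their values were seen, Gm23935 had 654 and 552 CPM in overexpression libraries, against 487 CPM in WT replicate 1 and 8226 CPM in WT replicate 2. What set this library apart was not tested.

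The tRNAs held 870 and 890 counts in overexpression libraries, against 702 and 650 counts in WT libraries, and minus-strand genes held most of them. The plus-strand genes held 90 and 197 counts in overexpression libraries, against 102 and 99 counts in WT libraries, and the minus-strand genes 780 and 693 counts in overexpression libraries, against 600 and 551 counts in WT libraries. The minus-strand sums did not overlap between groups, and the plus-strand sums did. These counts are not scaled, and WT replicate 2 had the lowest library total. Scaled to all counts, minus-strand genes made up 0.00426 and 0.00385% in overexpression libraries, against 0.00331 and 0.00357% in WT libraries. These still did not overlap (exact permutation p = 0.333, the smallest possible). The proline tRNA mt-Tp had 433 and 401 counts in overexpression libraries, against 357 and 340 counts in WT libraries. Scaled to depth, it had 23.7 and 22.3 CPM in overexpression libraries, against 19.7 and 22.0 CPM in WT libraries. Its log2 fold change was 0.12 (edgeR, adjusted p = 0.754). The cysteine tRNA mt-Tc had 177 and 173 counts in overexpression libraries, against 132 and 88 counts in WT libraries. Scaled to depth, it had 9.68 and 9.61 CPM in overexpression libraries, against 7.29 and 5.70 CPM in WT libraries. The minus-strand tRNA mt-Ty went the other way, with 1.09 and 0.833 CPM in overexpression libraries, against 1.38 and 2.59 CPM in WT libraries. Of the 5 minus-strand tRNAs tested, 3 lay higher without overlap and 1 lower, beside 26.3% and 21.7% of all genes. None of the 10 tRNAs tested passed the threshold in edgeR. In the count table mt-Tf, mt-Tv, mt-Ts1 and mt-Td had no reads in any library.

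Of the 77 nuclear subunit genes, 0 passed edgeR's threshold in overexpression cells, with a median log2 fold change of 0.03 and a range of -0.21 (Ndufb2) to 0.62 (Ndufa12). In the lists of transcription, RNA processing, DNA maintenance, tRNA synthetases, translation factors, mitochondrial ribosomal proteins, assembly factors, biogenesis regulators and the tricarboxylic acid cycle, 0 genes passed. The counts of the next lists stand beside 2.32% of all genes higher and 1.84% lower. Among 15 mitophagy genes 3 rose: the mitophagy receptors Bnip3 (0.59 ± 0.10, adjusted p = 0.00799) and Bnip3l (0.46 ± 0.09, adjusted p = 0.0128), and Gabarapl1, of the family that tags autophagosomes (0.38 ± 0.08, adjusted p = 0.0257, lost without WT replicate 2). Bnip3 had 58.2 and 55.2 CPM in overexpression libraries, against 38.2 and 36.3 CPM in WT libraries. Of 18 stress response genes 1 rose and 2 fell: Sesn2 at 0.62 ± 0.11 (adjusted p = 0.00934, lost without WT replicate 1), Chac1 at -1.48 ± 0.24 (adjusted p = 0.00526) and Asns at -0.56 ± 0.10 (adjusted p = 0.00934). Of 21 import and carrier genes 1 fell, Letm1, which encodes an ion exchanger of the inner membrane (-0.44 ± 0.11, adjusted p = 0.0451, lost with DESeq2 and without either WT library). Of 8 sensors of mitochondrial nucleic acids 1 rose, Nlrp3, at 2.03 ± 0.36 (adjusted p = 0.00822), and of 18 glycolysis genes 1 rose, Pfkl, at 0.29 ± 0.07 (adjusted p = 0.0337, lost without overexpression replicate 1 and without WT replicate 1).

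Markers of other cells moved with overexpression too, in columns matched to sorted overexpression cells by inference only. Over all genes tested there, 2.32% were higher and 1.84% lower. Acinar markers summed to 1557 and 1720 CPM in overexpression libraries, against 21322 and 22024 CPM in WT libraries, and 14 of 14 tested were lower. Islet markers summed to 630 and 676 CPM in overexpression libraries, against 1428 and 1261 CPM in WT libraries (8 of 10 lower), and endothelial markers to 155 and 184 CPM in overexpression libraries, against 303 and 300 CPM in WT libraries (5 of 10 lower). Higher in overexpression cells were 6 of 11 macrophage markers, 6 of 8 neutrophil markers and 4 of 5 B and plasma cell markers. Macrophage markers summed to 328 and 334 CPM in overexpression libraries, against 164 and 156 CPM in WT libraries. Neutrophil markers summed to 171 and 184 CPM in overexpression libraries, against 55.2 and 54.3 CPM in WT libraries, and B and plasma cell markers to 334 and 353 CPM in overexpression libraries, against 31.2 and 28.0 CPM in WT libraries. Of 11 fibroblast markers 2 were higher, of 5 erythroid markers 1 was higher, of 10 epithelial tumour markers 1 was lower (Cldn4), and of 3 T cell markers 0 passed the threshold. Of 4 nuclear-retained RNAs 2 were lower in overexpression cells, Malat1 (-0.57, adjusted p = 0.00439) and Meg3 (-1.29, adjusted p = 0.00641). Of 16 replication-dependent histone genes 1 was higher (Hist1h1c), and of 14 immediate-early and dissociation genes 1 was higher (Zfp36). Of 80 cytosolic ribosomal protein genes 1 was lower (Rpl17), while 72 of the 80 fold changes lay above 0, beside 49.8% of all genes tested. Their median was 0.11. The part of these cells and genes in the mitochondrial values was not tested.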

How the data were processed

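RNA sequencing values of 8 libraries of sorted KPC1199 cells were used, 2 in each of 4 groups, with the overexpression libraries matched by inference. The authors deposited raw counts per gene for the overexpression and WT libraries. The authors deposited TPM for the Ly6d-high and Ly6d-low libraries, with 2 columns of group values, which were not used as samples. The submitters' processing notes give no versions for fastp, HISAT2, featureCounts and DESeq2, and name mm9 as the build; the gene coordinates in the tables are those of GRCm38, since 98.3% of the 54409 genes found in GENCODE M21 had the same position, the 37 members included.

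Counts were tested with edgeR 4.0.16 (filterByExpr, TMM, quasi-likelihood test) in R 4.3.3. TPM were tested with limma 3.58.1 (trend) on log2(TPM + 1), keeping genes that reached 1 TPM in at least 2 libraries, since TPM are not counts; differences on this scale understate changes of low genes. P-values were adjusted by Benjamini-Hochberg over all genes tested, with a threshold of 0.05. TPM times length, scaled to the smallest step of each library, gave whole reads within 0.1 reads for 100% of values, and these recovered reads were used for depth, for tRNA sums and in edgeR and DESeq2 1.42.0 as alternatives. Each fit was tested on simulated data with 2 libraries a group, 200 changed genes and the same added spread for every gene. The share of false calls was under the threshold for edgeR on counts and well above it for limma on TPM. The adjusted p-values of limma are therefore treated as liberal. Shares of libraries were compared by exact permutation, and depth set their precision: 95% Wilson intervals cover counting error only. Sequences of members and copies came from GENCODE M21 transcripts on GRCm38.

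The members, the nuclear gene lists and the markers were chosen with earlier results of these data known. Every member was named; of each nuclear list, up to 4 genes past the threshold with the lowest p could be named, and the copies on chromosome 1 and Ly6d were named as well. Whether replicate numbers pair Ly6d-high and Ly6d-low libraries is not given by the labels, and the main fit did not pair them. Deviations from the group means correlated at 0.0681 over 14625 genes. With only 2 pairs this cannot show whether the libraries were paired.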

Additional observations from a re-analysis of the deposited data

How the results depend on the processing

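The lower share of mitochondrial RNA in Ly6d-high cells kept its direction under all 7 alternatives tried (ratio 0.560 to 0.606). Leaving out a library could not have reversed it, since the groups did not overlap. The alternatives with mRNAs only and without rRNAs were nearly the same set. The ratio of overexpression to WT cells lay between 1.02 and 1.30, the highest from computed TPM with both WT libraries. With TMM factors 925 genes passed in the Ly6d-high comparison (676 higher, 249 lower), against 1435 before (1264 higher, 171 lower); without a filter 531 passed, and 4 members. In edgeR on recovered reads 1815 genes passed (1224 higher, 591 lower), and in DESeq2 1537 (935 higher, 602 lower). Leaving out each library in turn gave 931 (without Ly6d-low replicate 1) to 6710 genes (without Ly6d-high replicate 1) and 18 to 23 members, of which at most 2 were higher. With the replicate number as a block, 4179 genes and 28 members passed (3 higher, 25 lower). Whether that number pairs these libraries is not known. No paired analysis was possible for overexpression and WT cells because the overexpression columns could be matched only to their group. There, 656 genes passed; without a filter 1187 passed, and 6 members (1 higher, 5 lower); DESeq2 called 1 member; leaving out each library gave 565 to 1584 genes (1584 without overexpression replicate 1, 1062 without replicate 2) and 0 to 8 members. Where that left 1 library in a group, it was assumed to vary like the other group. In the Ly6d-high comparison, leaving out a library turned the sign of mt-Te (-0.53 to 1.30), mt-Tn (-0.68 to 0.026), mt-Tp (-0.15 to 0.99), mt-Tt (-0.086 to 2.21) and mt-Ty (-1.58 to 1.12), none of which had passed the threshold. Between overexpression and WT cells it turned mt-Atp6 (-1.60 to 0.18), mt-Co2 (-1.12 to 0.24), mt-Co3 (-1.65 to 0.029), mt-Nd1 (-0.048 to 0.17), mt-Nd3 (-0.081 to 0.59), mt-Nd4 (-0.041 to 0.15), mt-Nd4l (-1.24 to 0.43), mt-Rnr1 (-0.60 to 0.24), mt-Rnr2 (-1.20 to 0.036), mt-Te (-0.22 to 1.66), mt-Tg (-0.25 to 2.13), mt-Tl1 (-0.29 to 0.16), mt-Tl2 (-1.52 to 0.47), mt-Tw (-0.18 to 0.40), and the copies Gm10222 (-1.41 to 0.39), Gm10925 (-1.23 to 0.090), Gm28437 (-1.09 to 0.40), Gm28439 (-1.25 to 0.079), Gm28661 (-1.32 to 0.21) and Gm29216 (-1.64 to 0.19). The causes were not tested. Depth limited the tRNAs, mt-Atp8, mt-Nd3 and mt-Nd4l, which had few reads in libraries of Ly6d-high and Ly6d-low cells.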
